A study of Sus scrofa with 8 samples.

Results

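Interferon-response and antigen-presentation genes were examined in bulk RNA sequencing of the right ventricular free wall of pigs, with 43 gene names in the set. The names were matched to the gene names of the authors' deposited comparison table, or to its column of human names with a single pig partner, and from there by gene identifier to the count table. In this way 38 names reached 37 of the 31908 gene models counted. IFIT1 and IFIT3 lie in the same model and share its reads. All 37 models passed the filter on low counts, which kept 13697 genes, and they divide into 27 interferon-induced and 10 antigen-presentation models. The other 5 names had no entry in those columns. GBP1, TAP2 and TAPBP were found through a table of pig gene names and SLA-DRA through its RefSeq position, so these 4 further models are described beside the 37 but kept out of the counts. XAF1 lies inside a model that spans 4 RefSeq genes and is given no value.

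The 8 animals were Yorkshire Cross pigs with 1 library each. In 4 castrated male piglets the pulmonary artery, which carries blood from the right ventricle to the lungs, had been banded at 4.5 ± 0.6 weeks of age and 6.4 ± 1.3 kg. The band was tightened to a peak right ventricular pressure of about 30 to 40 mmHg. The 4 control pigs were of similar age and weight, were housed for 8 weeks and have the treatment none in their labels. The sources used here do not give their sex, a sham operation, a batch or the time from banding to tissue collection. Effects of surgery, sex or an unlabelled batch cannot be told apart from those of the band. The animals are numbered 1 to 4 within each group as names only.

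The libraries held 31033679 to 34183338 counts, and levels are given as CPM, a count scaled to a library of fixed size. A count of 0 allows at most 0.0878 to 0.0967 CPM (counting error only). Mitochondrial-genome transcripts took 35.3 to 43.9% of the counts in controls and 30.5 to 39.7% in banded animals. The tissue label was checked against cardiomyocyte genes. MYL2, the ventricular myosin regulatory light chain, stood at 7651 to 20450 CPM and TNNT2, cardiac troponin T, at 6600 to 10160 CPM. The model of TNNI3, cardiac troponin I, held only 2.44 to 20.6 CPM, and 68.0% of its exon bases are shared with another model on the same strand, where the counting drops reads that fall on both. In bulk tissue, fewer cells of a type and less RNA per cell cannot be told apart.

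Interferons are secreted when cells sense foreign or misplaced nucleic acid. Type I interferons bind the IFNAR1 and IFNAR2 receptor and activate a complex that holds STAT2 and IRF9 and switches on antiviral genes such as the MX, OAS, IFIT and ISG15 families. Interferon gamma binds IFNGR1 and IFNGR2 and acts in part through IRF1 on genes of antigen presentation. Those include the immunoproteasome, which cuts proteins into peptides, the TAP transporter, which moves peptides into the endoplasmic reticulum for MHC class I, and the class II genes controlled by CIITA. In heart tissue many of these genes are expressed at a basal level by endothelial cells, fibroblasts and resident leukocytes.

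Nearly all of these genes showed no detected change with banding. Of the 37 models, 0 were higher and 1, the transcription factor IRF1, was lower in banded animals (called, at an adjusted p under 0.05; edgeR quasi-likelihood F test, Benjamini-Hochberg over all 13697 genes). That is 2.70% of the models. Among all genes tested, 6.97% were called in either direction, 3.47% higher and 3.5% lower, so the share of members called was below the background. Only IRF1 and NLRC5 had an unadjusted p under 0.05, both lower, where 23.8% of all genes did. DESeq2 and limma-voom also called IRF1 and no other member, and over all genes they called 12.5% and 9.79%. The groups did not overlap for 1 of the 37 models, again IRF1, against 15.9% of all genes. Among the 4 further models 0 were called by edgeR.

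The signs of the differences, called or not, were counted by function. Of the 27 interferon-induced models, 23 had a positive log2 fold change (banded over control) and 4 a negative one, with a median of 0.27 where all genes had 0.02. Of the 10 antigen-presentation models, 2 were positive and 8 negative, with a median of -0.07. The positive tilt of the interferon-induced models rested on 1 animal. Without banded 4 their median was -0.04, with 9 positive and 18 negative. The negative lean of the antigen-presentation models also depended on single animals. Without control 3, 5 were positive and 5 negative, with a median of -0.01. Without control 4, 4 were positive and 6 negative. With any other animal left out, 1 to 3 were positive.

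**Figure D1:**
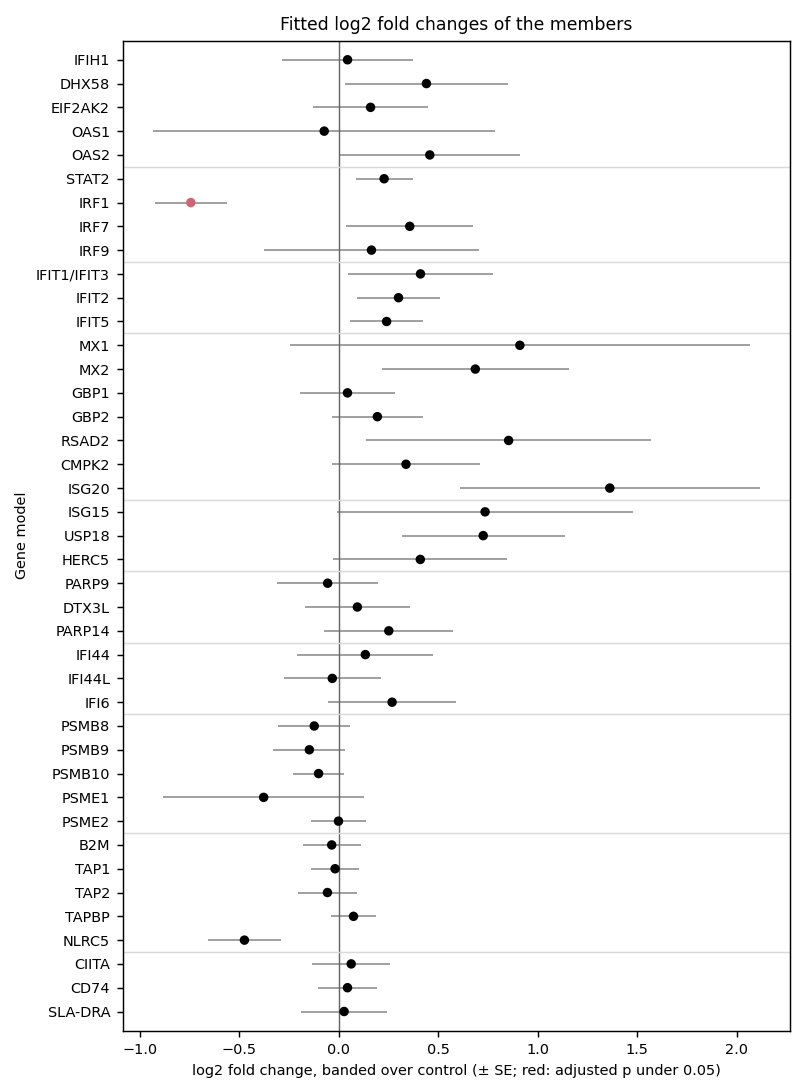
Fitted log2 fold change of each model, banded over control, with its standard error as a horizontal line, ordered by role from nucleic acid sensors to class II genes. IRF1, in red, was the only model with an adjusted p under 0.05, at -0.74, and the widest errors belonged to MX1, OAS1, ISG20 and ISG15.

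IRF1, a transcription factor induced by interferon gamma that drives class I genes and the immunoproteasome, was the member that changed. Its model (chromosome 2, 134776134 to 134783646, Sscrofa11.1) held 27.4, 26.1, 27.9 and 33.1 CPM in controls 1 to 4 and 13.0, 16.0, 23.8 and 15.5 CPM in banded 1 to 4. Every banded animal was below every control, and banded 3 lay nearest to the controls. IRF1 fell from 28.6 ± 3.06 to 17.1 ± 4.69 CPM (SD, n = 4 each), a log2 fold change of -0.74 ± 0.18 (SE; edgeR adjusted p = 0.0327). Its direction was the same under each of the 18 alternatives run, but the call was not. Leaving out banded 3 gave -0.95 with an adjusted p of 0.00317. Leaving out any of the other 7 animals gave -0.63 to -0.79 with adjusted p-values of 0.0653 to 0.0832, and a test against a 1.5-fold change gave 0.824.

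The other transcription factors of the set were not called. IRF7, the factor that amplifies type I interferon production, stood at 5.71 to 10.4 CPM in controls, and 5.72 to 16.8 CPM after banding, with a log2 fold change of 0.36 ± 0.32 (edgeR adjusted p = 0.541). STAT2, a signal transducer of the type I pathway, ranged from 12.1 to 15.2 CPM in controls, and from 13.2 to 17.4 CPM after banding, a log2 fold change of 0.23 ± 0.14 (edgeR adjusted p = 0.367). IRF9, the DNA-binding subunit of that complex, was counted at only 0.198 to 0.783 CPM. The models of STAT2 and IRF9 share 55.6% and 58.8% of their exon bases with another model on the same strand, so their counts may understate their expression. IRF1 was lower in banded animals while these 3 factors of type I signalling had small positive differences within their spread.

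Animals of the same group differed widely in their interferon-induced genes. The median of their within-group SD was 0.59 on the log2 CPM scale, against 0.30 for all genes tested. The highest of the 8 libraries stood at a median of 3.39 times the lowest, against 2.00 times for all genes. Banded 4 was the highest of the 8 libraries in 22 of the 27 interferon-induced models (81.5%), where it was highest in 15.9% of all genes tested. At the other end, control 2 was the lowest control in 22 of the 27 (81.5%), against 22.3% of all genes. The animals can be ordered by the median log2 level of the 27 models relative to the control mean. Banded 4 stood at 0.95 and banded 1 at 0.40, above controls 1 to 4 at 0.19, -0.36, 0.27 and 0.01, while banded 2 and banded 3 stood at -0.35 and -0.23. So 2 banded animals lay above all controls in this median and 2 lay below 3 of the 4 controls. These medians describe the members and carry no test.

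**Figure D2:**
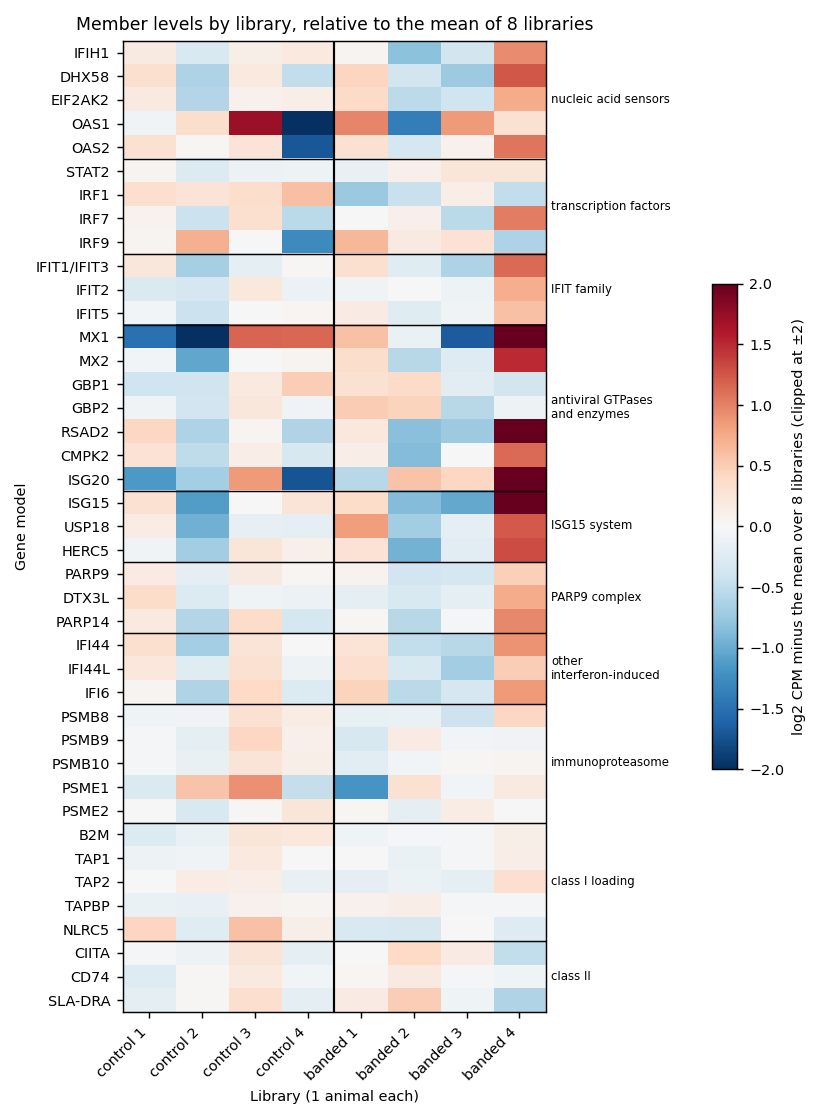
Level of each model in each library as log2 CPM minus its mean over the 8 libraries, with red above and blue below the mean and colours clipped at 2. The banded 4 column is red through most interferon-induced genes, with 22 of 27 highest there, and pale through the proteasome and class I genes.

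ISG15, a ubiquitin-like protein that is joined to other proteins after interferon, showed this plainly. Its model (chromosome 6, 63363173 to 63364208) held 24.2, 8.99, 19.7 and 23.6 CPM in controls 1 to 4 and 25.2, 10.8, 9.68 and 81.8 CPM in banded 1 to 4. Banded 4 was far above every other animal, while banded 2 and banded 3 were at the level of the lowest control. The log2 fold change was 0.74 ± 0.74 (edgeR adjusted p = 0.604), and without banded 4 it was -0.33. Its enzymes were also highest in banded 4. USP18, which removes ISG15 and restrains the interferon receptor, held 8.95, 4.12, 7.14 and 7.04 CPM in controls, and 14.3, 4.95, 6.99 and 18.8 CPM after banding. HERC5, the ligase that attaches ISG15, held 11.5, 7.48, 14.3 and 13.0 CPM in controls, and 14.8, 6.29, 10.4 and 30.0 CPM after banding. Both groups overlapped in each gene, and the adjusted p-values in edgeR were 0.322 for USP18 and 0.623 for HERC5. With each animal left out the log2 fold change was 0.365 to 0.975 for USP18 and -0.14 to 0.67 for HERC5.

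RSAD2, or viperin, which makes a nucleotide that stops viral polymerases, and CMPK2, a nucleotide kinase, are neighbours on chromosome 3 (128877186 to 128897847 and 128903616 to 128917871). RSAD2 held 56.4, 27.5, 43.7 and 27.7 CPM in controls 1 to 4 and 48.8, 23.6, 25.4 and 183.1 CPM in banded 1 to 4. CMPK2 held 14.1, 8.12, 12.6 and 9.25 CPM in controls, and 12.6, 6.31, 11.6 and 25.2 CPM after banding. Both genes were highest in banded 4 and lowest in banded 2. The log2 fold change of RSAD2 was 0.85 ± 0.72 (edgeR adjusted p = 0.525) and turned to -0.25 without banded 4. That of CMPK2 was 0.34 ± 0.37 (edgeR adjusted p = 0.633) and turned to -0.11.

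MX1 and MX2, dynamin-like GTPases that block viral replication, lie side by side on chromosome 13 (204843754 to 204868922 and 204798630 to 204831957), yet they varied to very different degrees. MX1 held 5.57, 3.04, 35.0 and 34.5 CPM in controls 1 to 4 and 23.4, 14.2, 4.95 and 104.3 CPM in banded 1 to 4. Controls 1 and 2 and banded 3 formed a low set under 6 CPM, and the highest library stood at 34.3 times the lowest, the widest range of the 37 models. MX2 held 39.8, 20.1, 41.6 and 43.1 CPM in controls, and 52.9, 28.3, 34.7 and 116.9 CPM after banding. Its range was 5.82 times. Both were highest in banded 4 and lowest in control 2. Their log2 fold changes were 0.91 ± 1.16 and 0.69 ± 0.47, with edgeR adjusted p-values of 0.691 and 0.425.

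OAS1 and OAS2 make the second messenger that activates RNase L, and both were low in control 4. OAS1 held 8.04, 10.8, 27.8 and 1.22 CPM in controls 1 to 4 and 16.6, 3.24, 15.3 and 10.4 CPM in banded 1 to 4. It was highest in control 3 and lowest in control 4, a range of 22.8 times, and banded 4 was in the middle. OAS2 held 61.4, 50.5, 58.9 and 15.3 CPM in controls, and 60.9, 38.8, 52.5 and 103.3 CPM after banding. Control 4 was the lowest animal for both genes, although it was not low for ISG15, MX1 or MX2. Neither was called, with log2 fold changes of -0.07 ± 0.86 and 0.46 ± 0.46 (edgeR adjusted p = 0.97 and 0.596). The OAS1 model (chromosome 14, 38851918 to 38859409) lies within the span of the OAS2 model (38827660 to 38860820), and no RefSeq gene falls mainly within it. It shares no exon bases with another model on the same strand, but its values may not stand for the whole gene.

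**Figure D3:**
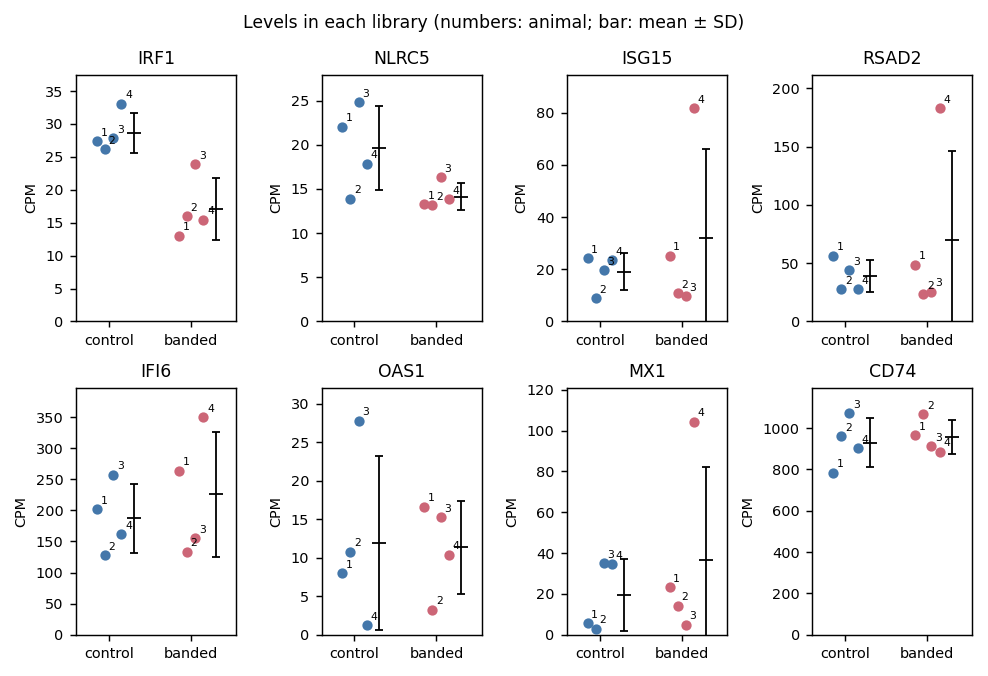
CPM in each animal for IRF1, NLRC5, ISG15, RSAD2, IFI6, OAS1, MX1 and CD74, with the animal number beside each point and the group mean ± SD as a bar (bars that would pass below 0 end at the axis). IRF1 separates the groups, banded 4 stands alone in ISG15, RSAD2 and MX1, and CD74 lies between 784.7 and 1072 CPM in all 8 animals.

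The cytosolic RNA sensors followed the pattern of ISG15 with smaller ranges. IFIH1, or MDA5, which detects long double-stranded RNA, held 17.95, 12.8, 17.3 and 18.2 CPM in controls, and 16.5, 9.02, 12.2 and 30.6 CPM after banding. DHX58, or LGP2, its regulator, ranged from 3.95 to 7.48 CPM in controls, and from 3.65 to 14.3 CPM after banding. EIF2AK2, or PKR, a kinase that halts translation on double-stranded RNA, ranged from 10.1 to 17.4 CPM and from 10.6 to 25.6 CPM. All 3 were highest in banded 4, their log2 fold changes were 0.04 to 0.44, and their edgeR adjusted p-values were 0.562 to 0.953.

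The IFIT genes, which bind viral RNA ends and sit in 1 cluster on chromosome 14, were each highest in banded 4 and lowest in control 2. The model that holds IFIT1 and IFIT3 (101214710 to 101249501) had 80.2, 43.2, 60.4 and 69.7 CPM in controls, and 85.1, 58.0, 44.4 and 149.5 CPM after banding. IFIT2 ranged from 12.1 to 17.7 CPM in controls, and from 14.3 to 25.3 CPM after banding. IFIT5 ranged from 23.0 to 32.0 CPM and from 26.3 to 46.6 CPM. Their log2 fold changes were 0.41 ± 0.36, 0.30 ± 0.21 and 0.24 ± 0.18, with edgeR adjusted p-values of 0.419 to 0.543.

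IFI6, a small mitochondrial protein that limits cell death, was the most abundant of the interferon-induced models per length. It held 202.2, 128.3, 257.4 and 161.6 CPM in controls 1 to 4 and 263.9, 133.8, 154.9 and 349.6 CPM in banded 1 to 4. Banded 4 was again highest and control 2 lowest, and the log2 fold change was 0.27 ± 0.32 (edgeR adjusted p = 0.664). IFI44 and IFI44L, neighbours on chromosome 6, were also highest in banded 4, at 33.6 and 69.1 CPM. Controls ranged from 11.3 to 22.4 CPM for IFI44 and from 41.9 to 61.3 CPM for IFI44L, and their edgeR adjusted p-values were 0.858 and 0.952.

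PARP9, DTX3L and PARP14, which take part in ADP-ribosylation and ubiquitination after interferon, are close together on chromosome 13. All 3 peaked in banded 4, at 4.73, 9.35 and 32.0 CPM, above control ranges of 2.96 to 3.82, 4.61 to 7.19 and 10.9 to 21.1 CPM. Their log2 fold changes ran from -0.06 to 0.25 with edgeR adjusted p-values of 0.691 to 0.92. The PARP9 model shares 42.1% of its exon bases with another model on the same strand. ISG20, an exonuclease that degrades viral RNA, was near the detection limit, with 0.0991 to 0.59 CPM in controls, and 0.221 to 1.599 CPM after banding. It had the largest log2 fold change of the set, 1.36 ± 0.76, at an edgeR adjusted p of 0.305.

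Guanylate-binding proteins, GTPases induced mainly by interferon gamma, did not follow banded 4. GBP2 held 14.4, 11.5, 17.7 and 14.4 CPM in controls 1 to 4 and 21.4, 20.5, 10.3 and 14.1 CPM in banded 1 to 4. Banded 1 and banded 2 were highest and banded 3 lowest, and banded 4 was at the level of the controls. GBP1, whose model also holds 2 other guanylate-binding loci, ranged from 41.4 to 76.8 CPM in controls, and from 42.2 to 71.2 CPM after banding, with banded 4 at 42.2 CPM. The log2 fold changes were 0.19 ± 0.23 for GBP2 and 0.04 ± 0.24 for GBP1 (edgeR adjusted p = 0.657 and 0.936). The GBP2 model overlaps the span of the GBP1 model, and near-identical copies in this family may share reads.

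The antigen-presentation models were much steadier. The median of their within-group SD was 0.21 on the log2 CPM scale and their median range between libraries was 1.56 times, both below the values for all genes. Banded 4 was the highest library in 1 of the 10, PSMB8, and its median level relative to the control mean was -0.00. Control 3 was the highest library in 7 of the 10 (70.0%), against 8.96% of all genes tested. In edgeR 0 of the 10 were called, with 1 at an unadjusted p under 0.05, and DESeq2 and limma-voom called 0.

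NLRC5, the transactivator of MHC class I genes, came nearest to a call. Its model (chromosome 6, 18937665 to 19036820) held 22.1, 13.9, 24.8 and 17.9 CPM in controls 1 to 4 and 13.3, 13.1, 16.3 and 13.8 CPM in banded 1 to 4. The banded animals were close together and below 3 of the 4 controls, while control 2 lay among them. The log2 fold change was -0.48 ± 0.18 with an edgeR adjusted p of 0.141 (unadjusted p = 0.0232).

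The immunoproteasome subunits PSMB8, PSMB9 and PSMB10 replace the constitutive catalytic subunits after interferon gamma. PSMB8 held 20.5, 20.7, 26.9 and 24.04 CPM in controls, and 19.5, 19.8, 16.3 and 29.0 CPM after banding. PSMB9 ranged from 7.77 to 11.9 CPM in controls, and from 7.17 to 9.95 CPM after banding. PSMB10 ranged from 26.9 to 35.4 CPM and from 25.2 to 30.9 CPM. The log2 fold changes of these 3 were -0.12 ± 0.18, -0.15 ± 0.18 and -0.10 ± 0.13, and their edgeR adjusted p-values were 0.668 to 0.728. PSME2, the beta subunit of the proteasome activator PA28, was at 50.1 ± 7.63 CPM without a band and 50.03 ± 4.70 CPM with one. PSME1, the alpha subunit, was counted at 0.284 to 1.21 CPM, and its model shares 41.8% of its exon bases with another on the same strand.

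The peptide transporter genes TAP1 and TAP2 lie with PSMB8 and PSMB9 in the MHC region of chromosome 7. TAP1 (25062773 to 25071862) held 28.5 ± 2.74 CPM in controls, and 28.1 ± 2.20 CPM after banding, a log2 fold change of -0.02 ± 0.12 (edgeR adjusted p = 0.943). TAP2 held 25.4 ± 2.35 and 24.4 ± 4.57 CPM, and was highest in banded 4, at 31.3 CPM. TAPBP, or tapasin, which ties the transporter to class I molecules, held 57.7 ± 5.02 and 60.7 ± 3.32 CPM in a model that also holds ZBTB22. B2M, the light chain of class I, held 137.1, 151.8, 197.3 and 191.5 CPM in controls, and 156.8, 162.2, 161.5 and 180.5 CPM after banding, in a model that also spans SPG11. The groups overlapped for all 4 genes, and their log2 fold changes lay between -0.06 and 0.07.

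Class II genes are carried mainly by macrophages, dendritic cells and B cells. CD74, the invariant chain that guides class II molecules, held 784.7, 959.5, 1072 and 903.0 CPM in controls, and 966.5, 1068, 911.9 and 885.3 CPM after banding, in a model (chromosome 2, 151402212 to 151433844) that also holds the ribosomal gene RPS14. CIITA, the class II transactivator, held 11.5, 10.9, 14.0 and 10.3 CPM in controls, and 11.8, 15.5, 13.2 and 8.34 CPM after banding. SLA-DRA, the class II alpha chain, held 205.2, 235.2, 293.5 and 205.0 CPM in controls, and 258.4, 326.2, 218.3 and 153.2 CPM after banding. CIITA and SLA-DRA were both highest in banded 2 and lowest in banded 4, the animal in which most interferon-induced genes were highest. The log2 fold changes of the 3 genes were 0.03 to 0.06, with edgeR adjusted p-values of 0.883 to 0.957.

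Levels can be compared between genes only per length. In control animals CD74 stood at 297.2 CPM per kilobase of model, with RPS14 in the same model, and IFI6 at 193.6. SLA-DRA at 40.7, ISG15 at 30.2 and PSME2 at 29.9 CPM per kilobase came next. At the low end were PARP9 at 0.789, PSME1 at 0.327, IRF9 at 0.117 and ISG20 at 0.100 CPM per kilobase, of which the first 3 share exon bases with another model. In banded animals ISG15 was at 50.3 CPM per kilobase, a mean carried by banded 4.

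Other genes of these pathways were taken from 6 lists of ligands, receptors, sensors, further interferon-induced genes, class I and class II partners and constitutive proteasome subunits. Of their 102 models tested outside the members, 4 were higher and 0 lower in banded animals (3.92%, against 6.97% of all genes in either direction), with 26 (25.5%) at an unadjusted p under 0.05, near the 23.8% of all genes. By list this share ran from 4.0% of the further interferon-induced genes to 53.3% (8 of 15) of the ligands, receptors and kinases. Of those 15, 12 had a positive and 3 a negative log2 fold change. EdgeR and limma-voom called 1 of them, IFNGR1, and DESeq2 called 2, where it called 12.5% of all genes. The interferon genes IFNA1, IFNB1, IFNE and IFNK had 0 counts in all 8 libraries, and IFNG had 0 to 7 counts. RIGI, the RNA sensor RIG-I, had 0 to 6 counts and PSMB5, the constitutive partner of PSMB8, 0 to 2, in models that share 85.5% and 91.7% of their exon bases with another. Those counts were not tested.

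IFNGR1, the ligand-binding chain of the interferon gamma receptor, rose, and every banded animal stood above every control. It held 26.9, 26.1, 23.5 and 28.3 CPM in controls 1 to 4 and 47.5, 48.7, 45.04 and 43.9 CPM in banded 1 to 4. The mean went from 26.2 ± 2.00 to 46.3 ± 2.20 CPM with no overlap, a log2 fold change of 0.82 ± 0.11 (edgeR adjusted p = 0.00199), and the call held in every alternative except the test against a 1.5-fold change (0.242). IFNGR2, the second chain, ranged from 28.4 to 36.3 CPM in controls, and from 33.3 to 56.8 CPM after banding, a log2 fold change of 0.48 ± 0.17 (edgeR adjusted p = 0.104). IFNGR1 was thus higher in the 4 animals in which IRF1 was lower. The type I receptor chains IFNAR1 and IFNAR2 had log2 fold changes of 0.04 ± 0.15 and 0.61 ± 0.27 (edgeR adjusted p = 0.903 and 0.196). IFNAR2 held 28.5 CPM in banded 3, where the other banded animals held 11.6 to 13.1 CPM and controls 10.3 to 11.8 CPM. With each animal left out its log2 fold change was 0.20 to 0.74. JAK1, a kinase bound to both receptors and the most abundant of this list per length, was not called and had a log2 fold change of -0.06 ± 0.15.

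**Figure D4:**
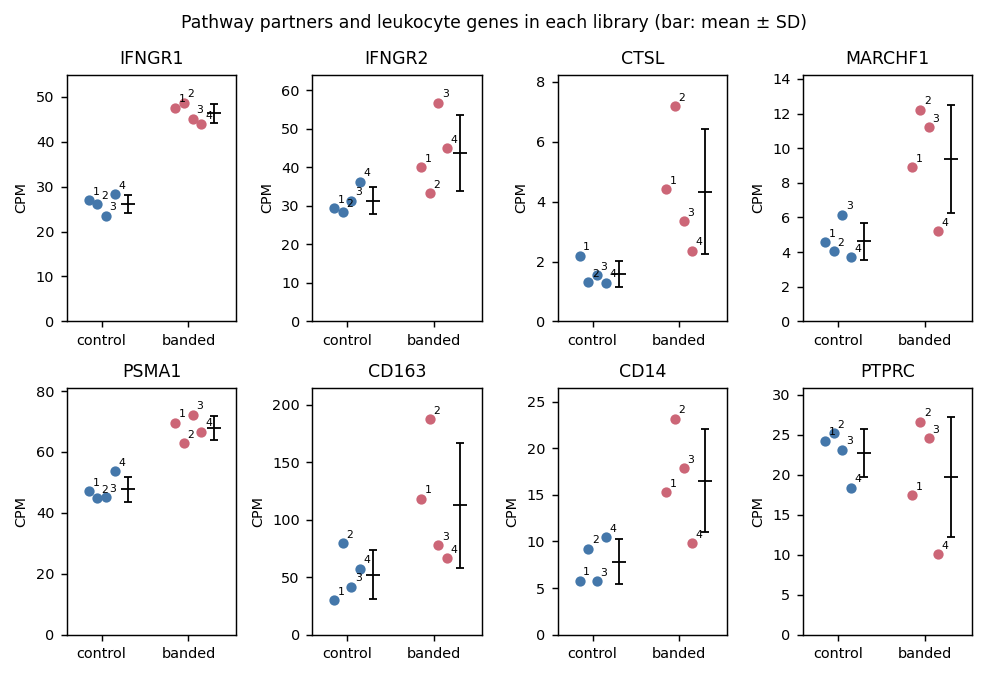
CPM in each animal for 5 pathway partners (IFNGR1, IFNGR2, CTSL, MARCHF1, PSMA1) and 3 leukocyte genes (CD163, CD14, PTPRC), with the group mean ± SD as a bar. The 4 banded animals of IFNGR1 lie at 43.9 to 48.7 CPM, above all controls, and banded 4 is the lowest animal for PTPRC at 10.1 CPM.

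The remaining calls were class II partners and a proteasome subunit. CTSL, a lysosomal protease that trims the invariant chain, held 1.29 to 2.20 CPM in controls and rose to between 2.36 and 7.20 CPM, a log2 fold change of 1.45 ± 0.36 (edgeR adjusted p = 0.0345). MARCHF1, a ubiquitin ligase that removes class II molecules from the surface, held 3.70 to 6.15 CPM in controls and rose to between 5.21 and 12.2 CPM with banded 4 inside the control range, a log2 fold change of 1.02 ± 0.27 (edgeR adjusted p = 0.0454). PSMA1, a structural subunit of the proteasome core, rose by 0.51 ± 0.11 on the log2 scale (edgeR adjusted p = 0.0234). These 3 calls were less firm than that of IFNGR1. CTSL was not called without any of the controls, banded 1 or banded 2 in turn (adjusted p = 0.0549 to 0.107), MARCHF1 without 7, all but banded 4 (0.0589 to 0.131), and PSMA1 without control 1, 2 or 3 (0.0747 to 0.0871). With scaling by library size alone their adjusted p-values were 0.0646, 0.11 and 0.0586, and with upper-quartile scaling that of MARCHF1 was 0.0516. CTSD, the most abundant class II partner per length, had a log2 fold change of 0.60 ± 0.17 (edgeR adjusted p = 0.0568), and DESeq2 and limma-voom called it.

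The constitutive proteasome and the immunoproteasome leaned to opposite signs. All 16 constitutive models tested had a positive log2 fold change, with a median of 0.21 and 1 call, PSMA1, whereas all 5 immunoproteasome models had a negative one. Of the 5, PSME2 was at -0.0022 and the low-count PSME1 at -0.38 ± 0.50. With scaling by library size alone 12 of the 16 were positive. With median-of-ratios scaling, DESeq2 or limma-voom, 1 of the 5 was positive. With each animal left out, 14 to 16 of the 16 and 0 to 1 of the 5 were positive. Banded 3 was the highest library in 12 of the 16 (75.0%), against 19.97% of all genes tested, and without it 15 of the 16 were positive. Library size alone lowered the median over all genes tested from 0.02 to -0.09 on the log2 scale. PSMB6 and PSMB7, the constitutive counterparts of PSMB9 and PSMB10, had log2 fold changes of 0.08 ± 0.14 and 0.21 ± 0.19 and were not called. The difference between the 2 kinds of subunit was not tested. Among 10 class I heavy chain and loading models, edgeR called 0 (5 at an unadjusted p under 0.05) and DESeq2 and limma-voom called 1, CANX. The reads of SLA-1, SLA-2 and SLA-3, the classical class I heavy chains, fall in 1 shared model, which held 756.7 to 905.2 CPM in controls, and 458.3 to 762.3 CPM after banding, a log2 fold change of -0.43 ± 0.17 (edgeR adjusted p = 0.151). This model, CANX, HSPA5, FCGRT, and the genes TLR9, TRIM25 and CXCL10 given next were named after their values were seen.

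The list of further interferon-induced genes repeated the pattern of single animals. Of its 25 models, 18 (72.0%) were highest in banded 4 and 13 had control 2 as the lowest control. IFITM3, the most abundant of them per length and a membrane protein that blocks viral entry, held 49.0, 44.5, 78.9 and 65.1 CPM in controls, and 61.8, 52.1, 44.4 and 126.0 CPM after banding. EdgeR called 0 of the 25 with 1 at an unadjusted p under 0.05, limma-voom called 0 and DESeq2 called 1, CXCL10. Of 18 sensing models edgeR called 0 (2 at an unadjusted p under 0.05), and DESeq2 and limma-voom called TLR9 and TRIM25. These 2 of 18 lie near the share of all genes that each of these tools called. MAVS, the adaptor of the RNA sensors and the most abundant of them per length, had a log2 fold change of -0.20 ± 0.17.

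Leukocyte markers were read in the same libraries, since interferon-induced genes and class II genes are expressed in those cells. The sum of 6 pan-leukocyte genes was 162.3 to 173.2 CPM in controls and 169.5, 259.5, 248.7 and 115.9 CPM in banded 1 to 4. Banded 4, the highest animal for interferon-induced genes, had the lowest level of the 8 for 6 of the 6 pan-leukocyte genes. PTPRC, or CD45, held 24.3, 25.2, 23.1 and 18.4 CPM in controls, and 17.4, 26.6, 24.6 and 10.1 CPM after banding. Banded 2, which was among the lowest animals for interferon-induced genes and highest for SLA-DRA and CIITA, had the highest pan-leukocyte sum.

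**Figure D5:**
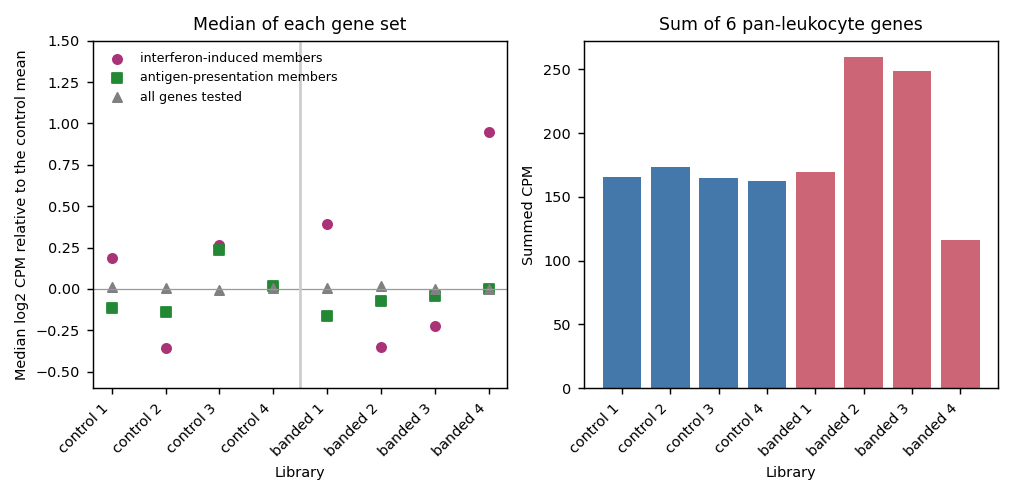
Left, the median log2 CPM relative to the control mean in each library for the interferon-induced members, the antigen-presentation members and all genes tested. Right, the summed CPM of 6 pan-leukocyte genes in each library: banded 4 has the highest interferon-induced median, 0.95, and the lowest leukocyte sum, 115.9 CPM.

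In none of the 6 lists of single leukocyte types was banded 4 the highest library. The 11 macrophage genes summed to 404.8 to 639.7 CPM in controls, and 598.8 to 1141 CPM after banding, with banded 4 the lowest of the banded. CD14 rose by 1.08 ± 0.28 on the log2 scale (edgeR adjusted p = 0.043), while CD68 and CD163 had edgeR adjusted p-values of 0.0924 and 0.13. Of the 11 genes, 7 had an unadjusted p under 0.05 in edgeR, where 23.8% of all genes did. DESeq2 called 4 of the 11, CD14 and CD163 among them, and limma-voom 4, CD14, CD68 and CD163 among them. Over all genes these tools called 12.5% and 9.79%. The 7 dendritic cell genes summed to 12.6 to 21.8 CPM in controls, and 6.88 to 11.5 CPM after banding. Of these, ZBTB46 fell by 1.05 ± 0.28 on the log2 scale (edgeR adjusted p = 0.0471), and FLT3 was at 0.0695 to 1.02 CPM. For plasmacytoid dendritic cells, the main source of type I interferon, 3 of 5 listed genes had a model, TCF4, GZMB and IRF8. They summed to 25.1 CPM in banded 4 and 32.3 to 41.7 CPM in controls. TCF4 held 20.96 CPM in banded 4 and 21.2 to 33.4 CPM in controls, so the sum mostly followed this 1 gene. IL3RA and LILRA4 had no model, and the sum may not follow these cells.

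T and NK cell genes, 13 in number, summed to 37.3 to 50.8 CPM in controls, and 26.4 to 57.5 CPM after banding. CD3E was at 1.599 to 3.77 CPM and CD79A, of B cells, at 1.56 to 3.05 CPM over all 8 animals. The 7 B and plasma cell genes summed to 4.71 to 9.53 CPM, and the 6 neutrophil genes to 1.48 to 3.16 CPM with MPO and ELANE at 0 counts. The model of CD3G had 0 counts and shares 96.7% of its exon bases with another model on the same strand, and that of CD79A shares 65.8%, so their counts are uncertain. GNLY, a granule protein of cytotoxic cells named after its values were seen, stood at 9.84 to 27.98 CPM and was the most abundant of the T and NK genes per length, at 17.3 CPM per kb in controls and 21.4 CPM per kb after banding. Banded 4 had the lowest T and NK sum of the 8 animals. The 9 endothelial genes summed to 974.6 to 1143 CPM in controls, and 994.2 to 1053 CPM after banding, with PECAM1 at a log2 fold change of 0.04 ± 0.14. The 8 cardiomyocyte genes summed to 39180 to 51150 CPM in controls, and 52160 to 63930 CPM after banding, where MYL2 rose by 0.91 ± 0.17 on the log2 scale (edgeR adjusted p = 0.0113). The cardiomyocyte sums of the groups did not overlap. The model matched to MYH6 gave 14790 to 23310 CPM of these sums, and it spans the RefSeq gene MYH7 and another locus. Of the 8 genes, however, 4 had a positive and 4 a negative log2 fold change, with a median of -0.025. MYL2 held 7651 to 10890 CPM in controls, and 14320 to 20450 CPM after banding, while TNNI3 had a log2 fold change of -1.25 ± 0.39. The higher sums thus do not stand for a shared rise of these genes. The 7 fibroblast genes summed to 3649 to 4871 and 3261 to 5739 CPM, and PDGFRA fell by 0.49 ± 0.13 on the log2 scale (edgeR adjusted p = 0.048). The call of CD14 was lost without control 1, 2 or 3 or banded 1, 2 or 3 (adjusted p = 0.0647 to 0.126), that of ZBTB46 without any animal but control 4 (0.0619 to 0.15), and that of PDGFRA without any animal but banded 2 or banded 3 (0.0648 to 0.151). With scaling by library size alone the adjusted p-values of CD14, ZBTB46 and PDGFRA were 0.0624, 0.0586 and 0.0704. With upper-quartile scaling those of ZBTB46 and PDGFRA were 0.053 and 0.0537, without robust estimation 0.0512 and 0.0515, and with no filter on low counts that of PDGFRA was 0.0524. In the test against a 1.5-fold change none of the 3 was called (0.374 to 1.0). The part of cell composition in the levels of IRF1, IFNGR1 and the other genes above was not tested.

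In the authors' deposited table, with signs turned to banded over control, IRF1 was also the single member with an adjusted p under 0.05 among the 37, with a log2 fold change of -0.95 and an adjusted p of 5.95e-07. Of the 14099 genes with an adjusted p there, 10.6% were under 0.05. NLRC5 had -0.55 and an adjusted p of 0.0792 in the authors' deposited table. Among the 102 pathway partners the authors' deposited table had 8 under 0.05, namely IFNGR1, CTSL, MARCHF1, PSMA1, CTSB, CTSD, CANX and BST2.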

How the data were processed

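Total RNA of frozen right ventricular tissue from 4 control and 4 banded pigs was sequenced in bulk. The authors ran featureCounts 1.6.2 on read pairs, per the file headers, with strand setting 2 and a minimum mapping quality of 10, on Ensembl release 106 of Sscrofa11.1, and the deposited values are raw counts with the model length beside them. The header names 24 libraries, of which 8 were analysed. Trimmomatic, HISAT2 and DESeq2 appear in the submitters' processing notes. The authors' deposited table gives a log2 fold change, with the controls in the numerator, and an adjusted p-value. The sources used here do not give its model.

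Genes were kept by filterByExpr (minimum count 10, total 15), scaled by TMM and tested with edgeR 4.0.16 (quasi-likelihood F test) in R 4.3.3 (robust, two-sided, Benjamini-Hochberg, threshold 0.05). The standard error is the log2 fold change over the square root of F. P-values measure the spread between animals. The script was tested on simulated data. Alternatives were DESeq2 1.42.0, limma-voom (limma 3.58.1) with quality weights, 3 other scalings, 2 other filters, a 1.5-fold threshold test, no robust estimation, counts without mitochondrial-genome genes, and each animal left out.

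The members and gene lists were chosen with earlier results of these data known. The text names all matched members, the called genes (at most 4) and the most abundant per length of each pathway list, up to 3 called genes per marker list, and PTPRC, CD3E, CD79A, CD68, CD163, FLT3, PECAM1, TNNI3, IFNAR1, IFNAR2, IFNGR1, IFNGR2, PSMB5, PSMB6 and PSMB7. TNNT2, MYH6, CTSB, BST2, TCF4, GZMB and IRF8 were added after their values were seen. A further gene of this rule is not reported here.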

Additional observations from a re-analysis of the deposited data

Results flagged for a closer look

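Of 82 groups of 4 animals, 2 for each of the 41 models, 7 held an animal whose gap to the nearest of the others, on the log2 CPM scale, was above Dixon's critical share of the group's whole range. Chance flags about 1 in 20 groups, and the genes share animals, so the 7 are not independent. Control 2 was apart on the low side in 3 genes. It held 12.8 CPM of IFIH1 where the other controls held 17.3 to 18.2, 10.1 CPM of EIF2AK2 against 16.2 to 17.4, and 20.1 CPM of MX2 against 39.8 to 43.1. Control 4 held 15.3 CPM of OAS2, and the other controls 50.5 to 61.4. Banded 4 was apart on the high side in the other 3. It held 25.3 CPM of IFIT2 where the other banded animals held 14.3 to 15.5, 9.35 CPM of DTX3L against 4.52 to 4.93, and 31.3 CPM of TAP2 against 21.8 to 22.9.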

How the results depend on the processing

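Over 18 alternatives and 67 named genes that were tested, 1202 values were recomputed. No called value changed sign, and in 69 a value uncalled in both settings had the other sign. Among members, 8 values lost a call, all of IRF1, and 0 gained one. The count of members called, 1, was 0 in the test against a 1.5-fold change and 0 to 1 with each animal left out. The count of all genes called, 954, was 1710 with DESeq2, 148 in the test against a 1.5-fold change and 399 to 961 with each animal left out, the lowest without control 1, with 415 without control 2 and 409 without control 3. Of the called genes 49.8% were higher in banded animals, and 37.4% with scaling by library size alone. The count of pathway partners called, 4, was 12 with DESeq2, 10 with limma-voom, 1 with library size alone, 0 in the test against a 1.5-fold change and 1 to 8 with each animal left out, the highest without banded 4. The cause of these shifts was not tested, except that leaving out an animal leaves fewer samples. The median log2 fold change of the interferon-induced members, 0.27, was 0.13 with library size alone and -0.04 to 0.42 with each animal left out. With 4 animals per group and the spread given above, differences among the members may have gone undetected. In the simulated data the edgeR test called 8.96% of 1.5-fold, 50.7% of 2-fold and 90.9% of 4-fold changes. Those changes were set in genes drawn from those with a mean above 1 CPM, which the means of ISG20, IRF9 and PSME1 did not reach. The interferon-induced members also varied more within groups than all genes did. No paired analysis was possible because the labels give the groups no shared replicate numbers.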
